A study of Mus musculus with 80 samples.

Results

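The difference between the early light and the early dark phase that AgRP neurons keep when they lack Bmal1 was followed in 12 RNA-seq libraries, 6 collected at ZT14 and 6 at ZT2, of the 80 libraries of the series. ZT counts the hours from lights on, so that in the usual light cycle ZT2 falls early in the light and ZT14 early in the dark, when mice feed most. The members were all libraries whose titles name the AgRP-BMAL1-KO line with or without leptin. They carried the genotype label AGRP-Cre;BMAL1fx, in which Cre recombinase made by Agrp-expressing cells acts on a floxed Bmal1 gene. They fell into 4 groups of 3: PBS at ZT2, PBS at ZT14, leptin at ZT2 and leptin at ZT14. The 13 comparison libraries carried the label WT;BMAL1fx, the floxed allele without Cre, after the same 2 injections: 4 after PBS at ZT2, and 3 each after PBS at ZT14, leptin at ZT2 and leptin at ZT14. The floxed allele was therefore common to all 25 libraries, and an effect of Cre itself cannot be told apart from the loss of Bmal1. The labels give the source as AgRP+ neurons of the arcuate nucleus and state neither age, sex, pooling nor the leptin dose. All values below are the authors' normalised counts, and all differences are ZT14 minus ZT2 on the scale log2(normalised count + 1), with leptin as a term, so that a difference of 1 is a doubling of a well expressed gene.

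AgRP neurons of the hypothalamus drive feeding through the peptides AgRP and NPY and through GABA. The molecular clock of nearly every mammalian cell is a loop in which BMAL1 (gene symbol Arntl) and CLOCK or NPAS2 pair on E-box sequences and switch on the Per and Cry genes, whose proteins then repress BMAL1 and CLOCK. The same pair drives Nr1d1 and Nr1d2, which encode the REV-ERB repressors of Arntl, and Dbp, Tef and Hlf, whose proteins bind D-box sequences. Daily differences can also reach a cell from outside its own clock, through feeding, hormones, temperature and input from other neurons.

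The sequences just upstream of a few clock genes, picked among those that hold an E-box or a D-box there, show the letters this loop reads. The 250 bases before the RefSeq start site (build GRCm38.p6) are given for Ciart, the gene with the largest daily difference of all genes tested in the controls, for both start sites of Tef, and for Per3. The capitals mark E-boxes (CACGTG) in Ciart and Tef and D-boxes (TTATGTAA) in Per3, searched on both strands.
Ciart, chr3:95882229-95882478, minus strand: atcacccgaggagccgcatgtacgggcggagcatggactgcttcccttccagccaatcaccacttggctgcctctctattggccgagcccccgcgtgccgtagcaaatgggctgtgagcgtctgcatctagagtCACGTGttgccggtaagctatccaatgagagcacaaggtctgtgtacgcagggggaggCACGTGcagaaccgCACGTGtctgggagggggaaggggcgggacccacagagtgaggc
Tef, upstream start, chr15:81802423-81802672, plus strand: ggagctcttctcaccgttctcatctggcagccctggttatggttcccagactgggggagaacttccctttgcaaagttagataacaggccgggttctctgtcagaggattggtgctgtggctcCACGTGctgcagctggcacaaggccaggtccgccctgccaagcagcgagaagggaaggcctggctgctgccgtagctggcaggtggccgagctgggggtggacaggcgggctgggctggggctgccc
Tef, downstream start, chr15:81811164-81811413, plus strand: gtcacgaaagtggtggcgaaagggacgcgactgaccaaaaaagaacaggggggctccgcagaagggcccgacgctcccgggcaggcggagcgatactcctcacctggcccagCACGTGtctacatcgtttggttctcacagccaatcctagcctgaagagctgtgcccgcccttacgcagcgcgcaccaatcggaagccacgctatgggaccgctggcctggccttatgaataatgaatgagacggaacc
Per3, chr4:151044666-151044915, minus strand: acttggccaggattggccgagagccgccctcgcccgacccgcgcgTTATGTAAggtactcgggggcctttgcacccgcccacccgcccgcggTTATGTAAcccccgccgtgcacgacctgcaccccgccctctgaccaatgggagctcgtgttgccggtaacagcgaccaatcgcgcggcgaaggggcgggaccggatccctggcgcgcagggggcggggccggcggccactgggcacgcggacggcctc
Ciart holds 3 E-boxes, each Tef start holds 1, and Per3 holds 2 D-boxes and no E-box. Among all 32851 promoter windows of this length in the RefSeq table, 6.02% hold an E-box and 0.819% a D-box. Of the 29 clock genes listed, 23 have a promoter in the table. In 5 of these 23 (21.7%) at least 1 window holds an E-box, a share per gene where the 6.02% is per window. The windows of Nr1d1, Nr1d2, Dbp, Hlf, Cry2 and Arntl hold neither motif, and that of Cry1, not printed, holds 1 E-box. A match is a run of letters in this window and not a measured binding site.

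The recovered reads per knockout library ranged from 9.91 to 18.1 M, against 5.93 to 34.0 M in the controls, and 14277 to 15539 genes were above 0. Agrp, the peptide that defines the cells, lay between 28236 and 297351 in the 12 knockout libraries. Hsd11b2, a steroid dehydrogenase gene, lay between 2092 and 3749 in every knockout library and between 0 and 19.7 in every control library, so the genotype labels separate. Arntl itself was still read in the knockouts, at 108 to 526.3. Its genotype difference over all libraries was -0.84 (adjusted p = 0.143, limma, 12 against 13 libraries), or -0.94 (adjusted p = 0.0311), past the threshold, without the library labelled control PBS ZT2 replicate 2 described next. A value per gene can hold reads from outside a floxed exon and from cells without Cre. Fewer cells of a type and less RNA per cell cannot be told apart in such libraries. In the library labelled control PBS ZT2 replicate 2, Ciart stood at 364, Nr1d2 at 1208, Per3 at 275 and Tef at 427, against at most 15.2, 128, 130 and 228 in the other ZT2 controls. For the control differences of the clock genes a value without that library stands beside the first, and the knockout estimates do not use it other than for the shared spread. Leaving that library out narrowed the spread in several clock genes, and the knockout SE is given that way for Ciart and Nr1d2. Knockout PBS ZT2 replicate 4 had the fewest genes above 0 of the 25 libraries and the largest share of its reads, 17.6%, in its top 10 genes.

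No gene passed the threshold for time of day in the knockouts. Of 13942 genes tested, 0 (0%) had an adjusted p under 0.05 by limma, and the smallest adjusted p was 0.146. At an unadjusted p under 0.05 there were 1266 genes (9.08%), of which 578 (4.15%) were higher at ZT14 and 688 (4.93%) lower. The quasi-likelihood test of edgeR called 0 genes as well and put 1202 at an unadjusted p under 0.05. In 33 genes (0.237%) every ZT14 knockout library lay on 1 side of every ZT2 knockout library. With 6 against 6 libraries chance alone can separate the times in a share of genes near this one. In the controls the same contrast passed the threshold for 20 genes (0.143%), 9 higher and 11 lower at ZT14, and, without the library labelled PBS ZT2 replicate 2, for 86 (0.619%). There were 1132 control genes (8.12%) at an unadjusted p under 0.05 and 60 (0.43%) whose times did not overlap. The control share without overlap rests on 6 against 7 libraries, where chance separates fewer genes, so it is not directly comparable with the knockout share. The knockout count of 0 depended on single libraries and on the weighting. It was 1 without knockout PBS ZT14 replicate 2 and 6 without knockout PBS ZT14 replicate 3. Without knockout PBS ZT2 replicate 2, 44 of 13928 genes (0.316%) were called, 27 higher and 17 lower. The array weights of limma count a library less the more it departs from the others of its group. With them 491 genes (3.52%) were called, 236 higher and 255 lower, and these held 42 of the 44. The weights ran from 0.25 to 6.60, so a weighted group mean can rest largely on 1 library. Knockout PBS ZT2 replicate 3, for example, weighed 3.08, against 0.57 and 0.40 for the rest of its group.

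Whether the daily difference depended on genotype was tested gene by gene as the difference of the differences. No gene passed (0 of 13942, 0%, smallest adjusted p = 0.503, limma), and 659 genes (4.73%) were at an unadjusted p under 0.05. By edgeR the count was also 0. Without the library labelled control PBS ZT2 replicate 2 the count was again 0. With array weights 97 genes (0.696%) were called, Tef and Dbp among them. Where a knockout estimate below is smaller than a control estimate, that is a description of sizes.

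Clock genes that differed by several-fold between the times in controls had smaller estimates in the knockouts, and their values follow by role. Of 28 clock genes tested, 0 passed in the knockouts, 5 in the controls (8 without the library labelled PBS ZT2 replicate 2) and 0 for the difference between the genotypes. At an unadjusted p under 0.05 there were 6 in the knockouts (21.4%, against 9.08% of all genes), 13 in the controls (46.4%, against 8.12%) and 9 for the difference (32.1%, against 4.73%). The list was assembled with these data known, so the shares are a description. Over the 28 genes the median absolute difference was 0.28 in knockouts and 0.51 in controls, against 0.21 and 0.18 over all genes.

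**Figure D1:**
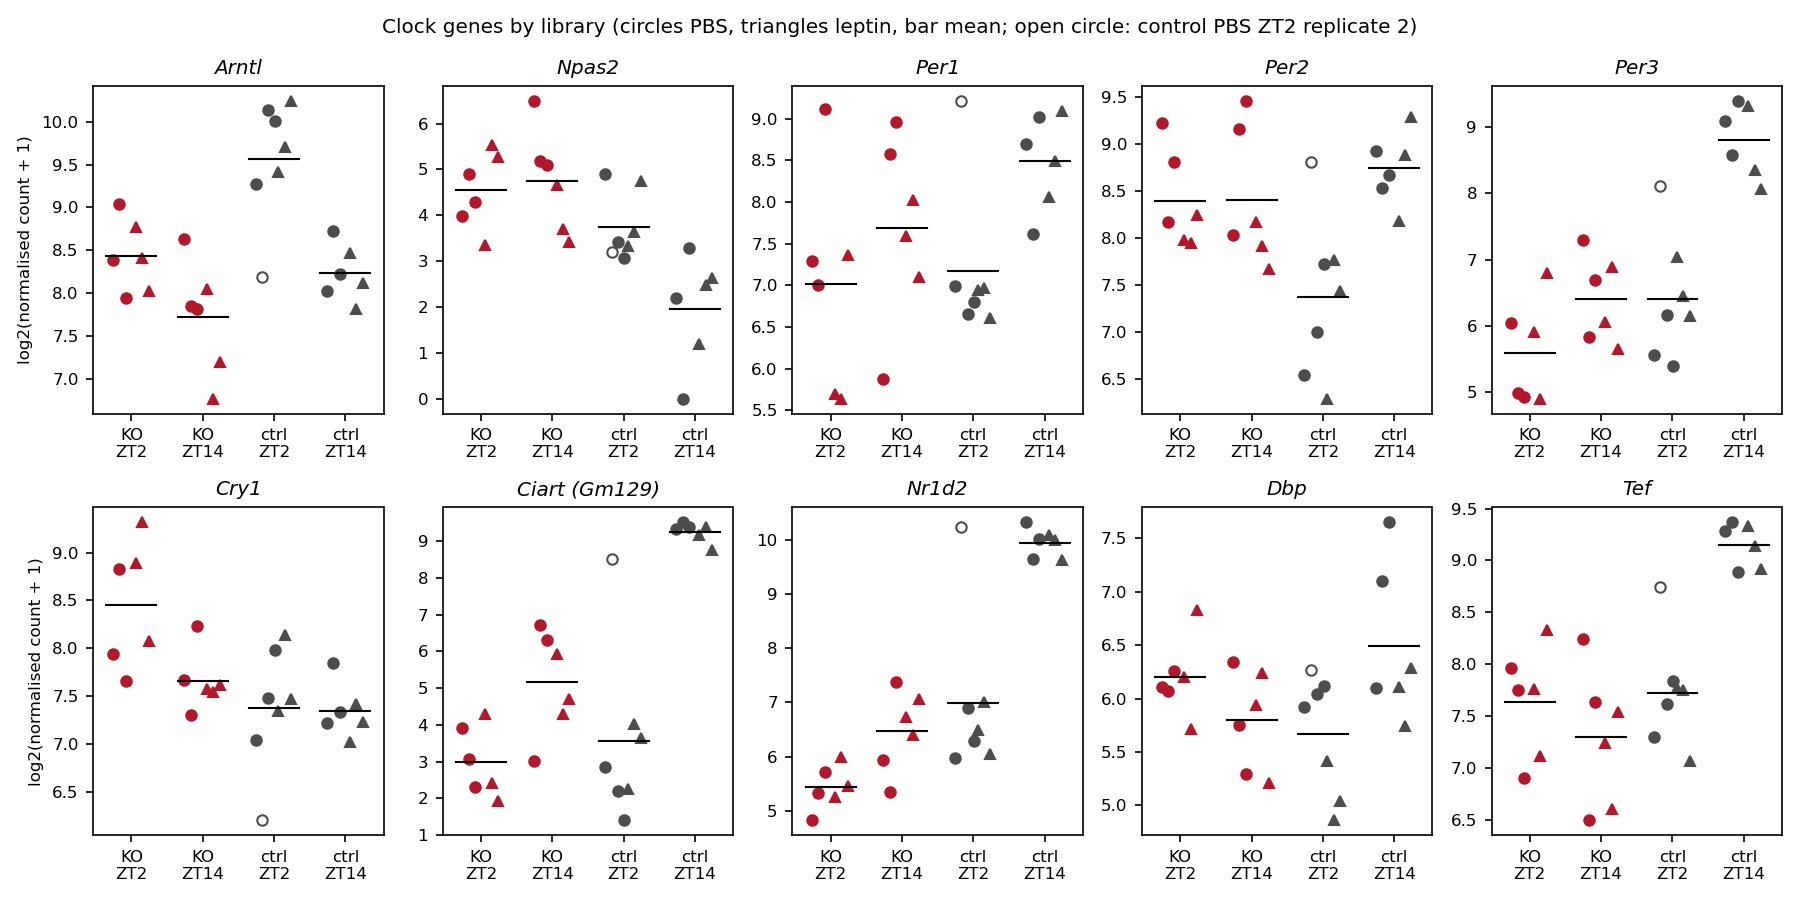
Normalised counts of 10 clock genes, as log2(normalised count + 1), in each of 12 knockout (red) and 13 control (grey) libraries by time; circles are PBS, triangles leptin, bars group means. In Ciart, Nr1d2, Per3 and Tef the 6 ZT14 control libraries lie above all knockout libraries, and the open circle, control PBS ZT2 replicate 2, lies near them.

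Among the activators, Arntl had the control direction in the knockouts. In knockouts it ranged from 246 to 526.3 (median 335) at ZT2 and from 108 to 395 (median 227) at ZT14, and the times overlapped. The lowest values were 108 and 146, both after leptin at ZT14. The difference was -0.71 ± 0.30 (SE, 6 against 6, 95% interval -1.33 to -0.10, adjusted p = 0.492, limma). Control libraries ranged from 291 to 1211 (median 832) at ZT2 and from 223 to 422 (median 287) at ZT14, a difference of -1.37 ± 0.29 (adjusted p = 0.0531), or -1.57 ± 0.25 (adjusted p = 0.00199) without the library that lay with ZT14. All 6 knockout libraries at ZT2 lay below 6 of the 7 ZT2 controls, and the ZT14 levels of the genotypes overlapped. The difference between genotypes was 0.65 ± 0.41 (adjusted p = 0.957). Npas2, a partner of BMAL1 that can replace CLOCK, lay between 9.25 and 45.4 at ZT2 and between 9.62 and 89.2 at ZT14 in knockouts, a difference of 0.20 ± 0.54. In controls it was at 7.42 to 28.7 and 0 to 8.77, a difference of -1.81 ± 0.53 (adjusted p = 0.225), or -1.88 ± 0.55 (adjusted p = 0.149) without the library that lay with ZT14. The difference between genotypes was 2.01 ± 0.76 (adjusted p = 0.874). Every ZT14 knockout library thus held more Npas2 than every ZT14 control library. Clock, which encodes the partner of BMAL1, had medians of 513 and 553 in knockouts and a difference of 0.02 ± 0.24.

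The 3 period genes encode repressors of the loop, and their knockout estimates ranged from near 0 to 0.81. Per2 was at 246 to 600 (median 295) at ZT2 and at 203 to 704 (median 274) at ZT14, with a difference of 0.01 ± 0.33 (95% interval -0.68 to 0.69). Its high values, 600 and 449 at ZT2 and 571 and 704 at ZT14, all came from PBS libraries, and the 6 leptin libraries stayed between 203 and 302. Control Per2 stood at 77.3 to 448 at ZT2 and 290 to 626 at ZT14, a difference of 1.41 ± 0.32 (adjusted p = 0.0848), or 1.62 ± 0.28 (adjusted p = 0.00457) without the library that lay with ZT14. The difference between genotypes was -1.40 ± 0.46 (adjusted p = 0.783). The knockout median at ZT2, 295, exceeded 6 of the 7 control values, whose median was 173. Per3 was lower in knockouts than in controls at the later time, at 49.3 to 156 (median 84.0) against 267 to 674 (median 464). At ZT2 it was at 28.8 to 110 (median 44.9), so the knockout difference was 0.81 ± 0.42 (adjusted p = 0.58) and the control difference 2.38 ± 0.40 (adjusted p = 0.0104), or 2.67 ± 0.34 (adjusted p = 0.000379) without the library that lay with ZT14. The difference between genotypes was -1.56 ± 0.58 (adjusted p = 0.868). Per1, which also answers to hormones and neuronal activity, ranged from 48.9 to 551 at ZT2 and from 57.6 to 498 at ZT14 in knockouts, a difference of 0.67 ± 0.50, against 1.36 ± 0.49 in controls, or 1.66 ± 0.45 (adjusted p = 0.105) without the same library. Its difference between genotypes was -0.70 ± 0.70 (adjusted p = 0.957). Without knockout PBS ZT14 replicate 1 the knockout difference of Per1 was 1.15 and the difference between genotypes -0.21. Without knockout PBS ZT14 replicate 3 the knockout difference was 0.38.

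Ciart, named Gm129 in the deposited table and encoding a repressor of the BMAL1 and CLOCK pair, had the largest estimate among the clock genes in the knockouts, where its ZT14 level lay below every ZT14 control. The 6 knockout libraries at ZT2 held 14.1, 7.47 and 3.98 after PBS and 18.5, 4.37 and 2.78 after leptin. At ZT14 they held 7.02, 105 and 78.7 after PBS and 59.7, 18.6 and 25.3 after leptin. In 5 of 6 libraries ZT14 lay above the highest ZT2 value, and knockout PBS ZT14 replicate 1 lay among the ZT2 libraries. The difference was 2.17 ± 0.85 (95% interval 0.42 to 3.93, adjusted p = 0.462). Its SE was 0.55 (adjusted p = 0.223, limma) without the library labelled control PBS ZT2 replicate 2. In the ZT14 controls Ciart lay between 432 and 729, and their difference was 5.73 ± 0.82 (adjusted p = 0.0045), or 6.53 ± 0.55 (adjusted p = 2.49e-07) without the library that lay with ZT14. The difference between genotypes was -3.56 ± 1.18 (adjusted p = 0.783), and -4.35 ± 0.78 (adjusted p = 0.0591) without that library. Without knockout PBS ZT14 replicate 1 instead, the knockout difference of Ciart was 2.76 and the difference between genotypes -2.97. Without knockout PBS ZT14 replicate 2 the knockout difference was 1.83. The promoter with 3 E-boxes printed above is that of this gene.

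The other repressors differed in direction. Cry1 was at 202 to 636 (median 361) at ZT2 and at 158 to 300 (median 192) at ZT14 in knockouts, a difference of -0.79 ± 0.28 (95% interval -1.37 to -0.22, adjusted p = 0.393). Its control medians were 176 and 155, a difference of -0.07 ± 0.27 (-0.23 ± 0.25 without the library that lay with ZT14), and the difference between genotypes was -0.73 ± 0.39 (adjusted p = 0.957). With array weights Cry1 and Arntl were the clock genes called in the knockouts, at -1.08 ± 0.24 (adjusted p = 0.0211) and -0.96 ± 0.27 (adjusted p = 0.047). Knockout PBS ZT2 replicate 3 had a weight of 3.08 in that fit. Without it the unweighted estimates were -0.62 for Cry1 and -0.57 for Arntl. Leaving out any 1 library without weights called neither gene. Cry2 lay between 382 and 925 in all 12 knockout libraries with a difference of -0.17 ± 0.20, against 0.73 ± 0.19 (adjusted p = 0.172) in controls. Without the library that lay with ZT14, Cry2 passed in the controls, at 0.85 ± 0.18 (adjusted p = 0.0243). Its difference between genotypes was -0.90 ± 0.28 (adjusted p = 0.735). Bhlhe40, which encodes the repressor DEC1, ranged from 38.5 to 2891 at ZT2 and from 313 to 1671 at ZT14 in knockouts, and its difference was 1.15 ± 0.48 (adjusted p = 0.491).

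The REV-ERB genes had the control direction in the knockouts, with smaller estimates. Nr1d2 lay between 27.3 and 62.9 (median 41.2) in knockouts at ZT2 and between 39.4 and 166 (median 94.8) at ZT14. Of the 6 ZT14 values 4 lay above the highest ZT2 value, and the 2 others, 39.4 and 60.4, were PBS libraries. The difference was 1.05 ± 0.49 (95% interval 0.03 to 2.06, adjusted p = 0.537). Its SE was 0.29 (adjusted p = 0.274, limma) without the library labelled control PBS ZT2 replicate 2. Control Nr1d2 ranged from 789 to 1285 at ZT14, and its difference was 3.02 ± 0.47 (adjusted p = 0.00543), with a difference between genotypes of -1.98 ± 0.68 (adjusted p = 0.79). Without the library that lay with ZT14 these were 3.51 ± 0.29 (adjusted p = 2.49e-07) and -2.46 ± 0.41 (adjusted p = 0.0591). Nr1d1 was at 97.9 to 150 at ZT2 and 97.4 to 202 at ZT14 in knockouts, a difference of 0.37 ± 0.23, against 1.19 ± 0.22 (adjusted p = 0.0226) in controls, or 1.33 ± 0.20 (adjusted p = 0.00192) without that library. The difference between genotypes was -0.82 ± 0.32 (adjusted p = 0.911).

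Of the output factors that bind D-boxes, Tef and Dbp had knockout estimates below 0 and control estimates above 0. Tef lay between 118 and 320 (median 215) at ZT2 and between 89.1 and 302 (median 168) at ZT14 in knockouts. The difference was -0.34 ± 0.30 (95% interval -0.95 to 0.27). Without knockout PBS ZT14 replicate 1 it was -0.54, and the difference between genotypes was -1.99. Without knockout PBS ZT14 replicate 2 these were -0.10 and -1.55. All 6 ZT14 controls lay between 472 and 659, above each of the 12 knockout libraries, and the control difference was 1.45 ± 0.29 (adjusted p = 0.0342), or 1.597 ± 0.276 (adjusted p = 0.00411) without the library that lay with ZT14. Dbp was at 51.6 to 113 and 36.1 to 80.03 in knockouts, a difference of -0.40 ± 0.28, and at 28.1 to 75.9 and 52.6 to 200 in controls, a difference of 0.90 ± 0.27 (adjusted p = 0.244), or 0.93 ± 0.28 (adjusted p = 0.17) without the same library. The differences between genotypes were -1.79 ± 0.41 for Tef (adjusted p = 0.672) and -1.30 ± 0.39 for Dbp (adjusted p = 0.735), and -1.94 ± 0.39 (adjusted p = 0.167) and -1.33 ± 0.40 (adjusted p = 0.557) without that library. With array weights both passed, at -1.77 ± 0.32 (adjusted p = 0.0219) and -1.52 ± 0.32 (adjusted p = 0.0374). In that fit control leptin ZT14 replicate 3 weighed 6.60, against 0.25 and 0.91 for the rest of its group. Hlf stood at 0.17 ± 0.28 in knockouts and 0.53 ± 0.27 in controls (0.57 ± 0.28 without that library). Wee1, a cell cycle kinase gene known as a clock output and named here because it passed in the controls, was at 122 to 603 and 330 to 520 in knockouts, a difference of 0.46 ± 0.23, against 1.24 ± 0.22 (adjusted p = 0.0155), or 1.37 ± 0.20 (adjusted p = 0.00167) without that library, with a difference between genotypes of -0.78 ± 0.32 (adjusted p = 0.957). In knockouts Wee1 stood at -0.29 ± 0.32 after PBS and 1.21 ± 0.32 after leptin (adjusted p = 0.702 for leptin minus PBS, limma).

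**Figure D2:**
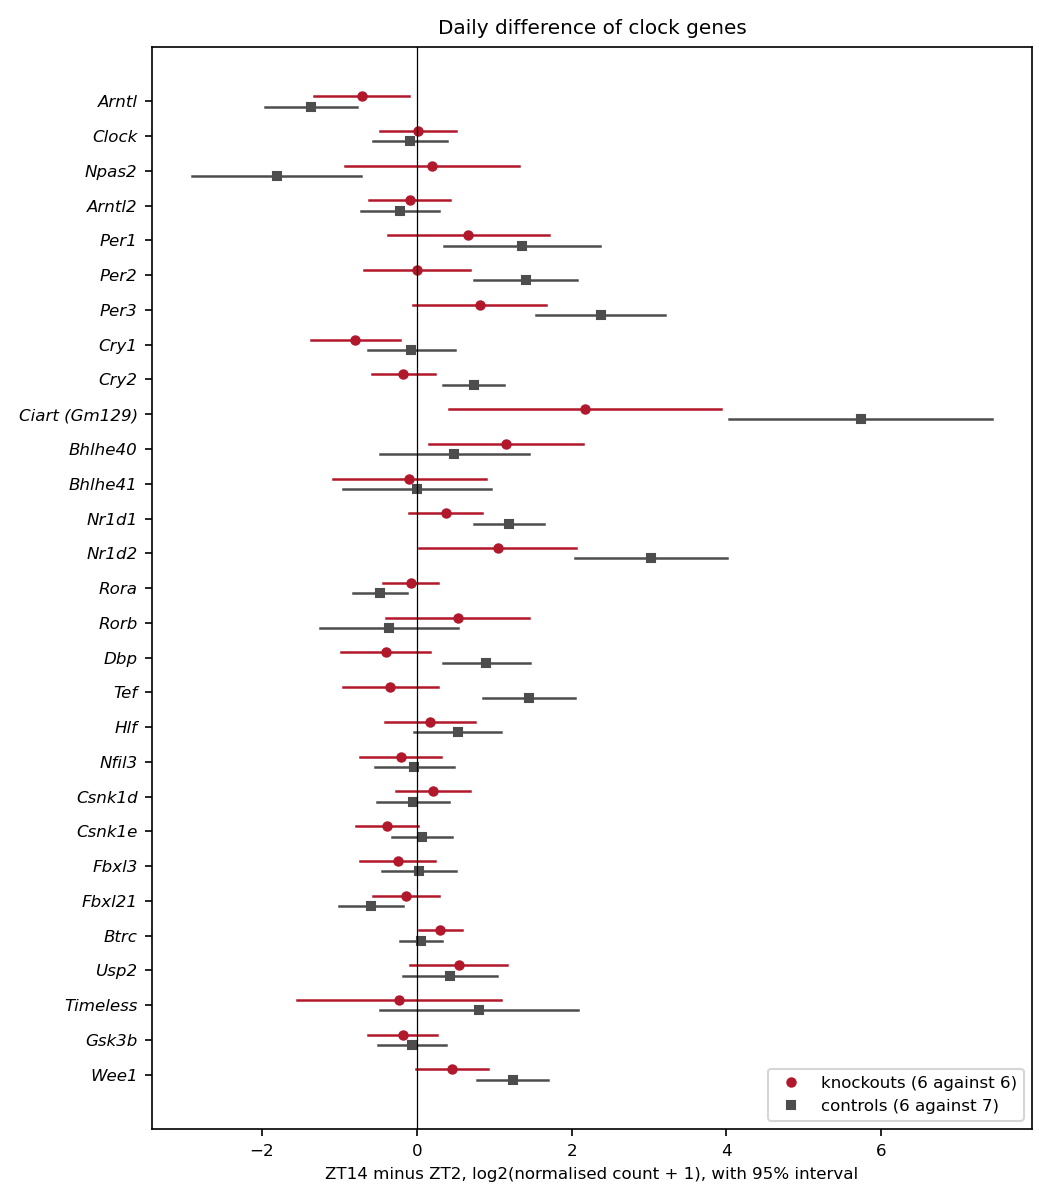
ZT14 minus ZT2 differences with 95% intervals for 28 clock genes and Wee1 in knockouts (red circles) and controls (grey squares), on log2(normalised count + 1). The control points for Ciart, Nr1d2 and Per3 stand at 5.73, 3.02 and 2.38, and the knockout points of the same genes at 2.17, 1.05 and 0.81.

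The genes called in the controls mostly had the same sign in the knockouts. Of the 20 genes called in controls, 18 had the same sign in knockouts, and the 2 with the other sign were Tef and Scd3. All 20 differences were smaller in knockouts, with a median of 0.65 in the control direction against 1.61 in controls, but choosing genes for a large control difference favours that order. At an unadjusted p under 0.05 and in the control direction there were 7 of the 20: Ciart, Nr1d2, Pcsk4, Elk3, Olfml3, Kcnj8 and Ptpre. Over all genes 9.08% reached that level in either direction. The fit uses 1 spread per gene for both genotypes, which favours a small p in both. Elk3, an ETS transcription factor gene, had knockout values of 26.5 to 145 at ZT2 and 13.5 to 31.6 at ZT14. Its difference was -1.57 ± 0.36 (adjusted p = 0.202), close in size to -1.95 ± 0.35 (adjusted p = 0.0155) in controls, with a difference between genotypes of 0.38 ± 0.50 (95% interval -0.65 to 1.42). Ptpre, a receptor phosphatase gene, went from a median of 359 to 127 in knockouts, a difference of -1.40 ± 0.32 (adjusted p = 0.202), and its control difference was -1.64 ± 0.31 (adjusted p = 0.0302), with a difference between genotypes of 0.24 ± 0.45 (adjusted p = 0.964). Olfml3 differed by 0.84 ± 0.22 and 1.03 ± 0.21 in the 2 genotypes, and Pcsk4, a proprotein convertase gene whose knockout times did not overlap (57.7 to 112 against 118 to 207), by 0.73 ± 0.22 and 1.31 ± 0.22. Their differences between genotypes were -0.19 ± 0.30 and -0.59 ± 0.31 (adjusted p = 0.957 for each). Scd3, a fatty acid desaturase gene, is the contrary case. It lay between 93.3 and 136 at ZT2 and between 86.0 and 154 at ZT14 in knockouts, a difference of 0.11 ± 0.21, while the controls went from a median of 103 to 35.7, a difference of -1.35 ± 0.20 (adjusted p = 0.0045). Its difference between genotypes was 1.47 ± 0.29, the smallest adjusted p of that test at 0.503 and 0.0219 with array weights. Stac, an adaptor protein gene, had a control difference of -3.70 ± 0.57 (adjusted p = 0.00485) and a knockout difference of -0.79 ± 0.58, with a difference between genotypes of 2.92 ± 0.81 (adjusted p = 0.735). Elk3, Ptpre, Olfml3, Pcsk4, Scd3 and Stac stayed past the threshold in controls without the library labelled PBS ZT2 replicate 2, with adjusted p between 0.00192 and 0.0108.

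**Figure D3:**
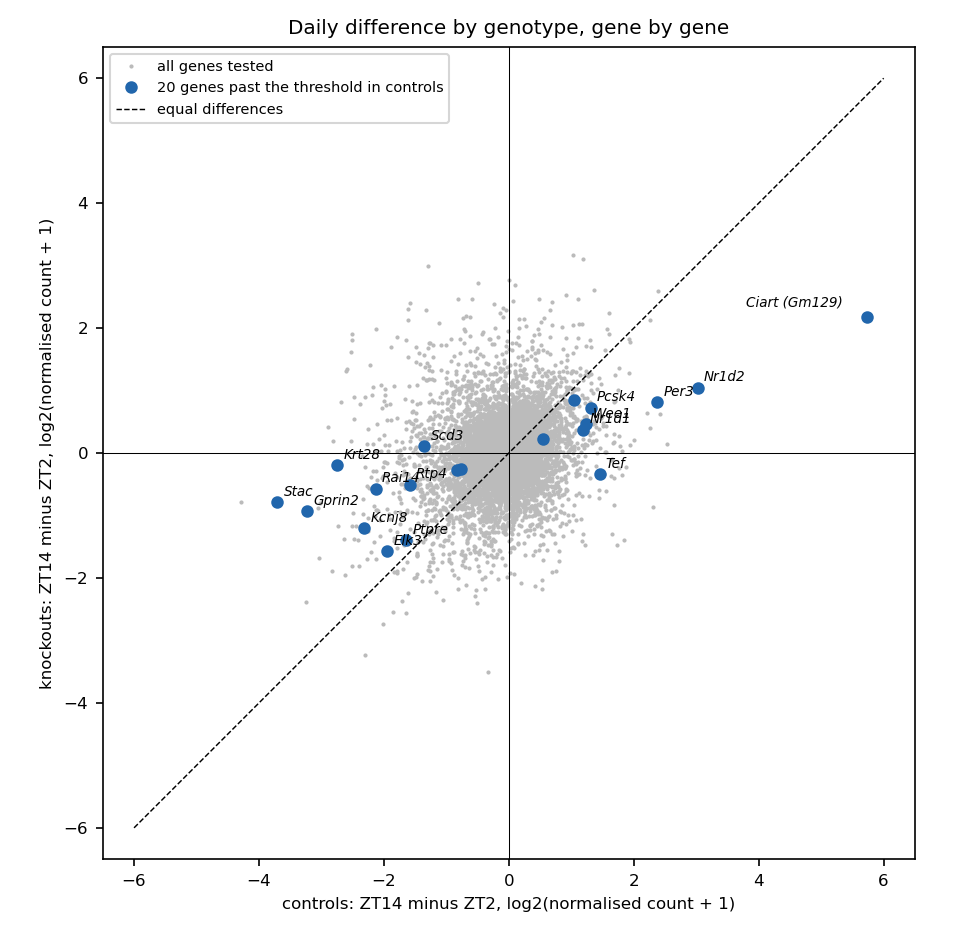
Each of 13942 genes by its ZT14 minus ZT2 difference in controls (horizontal) and knockouts (vertical), on log2(normalised count + 1); blue marks the 20 genes past the threshold in controls and the dashed line equal differences. All 20 lie between the dashed line and the horizontal axis or, for Tef and Scd3, beyond that axis, and Elk3 and Ptpre lie near the dashed line.

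Across all 13942 genes the 2 sets of differences, which share no library, had a Pearson r of 0.20 and a Spearman rho of 0.16, where genes are not independent replicates. The signs were equal in 53.4% of genes. Of the 233 genes at an unadjusted p under 0.05 in both genotypes, 202 (86.7%) had equal signs. Those 233 make up 18.4% of the 1266 such genes in knockouts and 20.6% of the 1132 in controls.

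The genes with the smallest p in knockouts were mixed in function, and none of the 20 named here passed the threshold. Higher at ZT14 were Rassf1, Pgr15l, Tmem191c, Wls, Cdh4, Igfbp5, Calu, Lclat1, Vwa3a and Stk32b, and lower were Rhebl1, Tecta, Cpne2, Snx30, Elk3, Mpp7, Tacc2, Ptpre, Ypel3 and Ppm1b. All 20 passed with array weights, and 10 of them did so without knockout PBS ZT2 replicate 2. Rhebl1, a small GTPase gene related to Rheb, had the smallest p. It lay at 167, 514 and 327 after PBS and 268, 244 and 239 after leptin at ZT2, and at 84.2, 157 and 75.6 after PBS and 178, 110 and 112 after leptin at ZT14. Only 1 ZT14 value, 178, exceeded the lowest ZT2 value. The difference was -1.27 ± 0.23 (adjusted p = 0.146), against -0.17 ± 0.23 in controls, and the difference between genotypes was -1.10 ± 0.33 (adjusted p = 0.735). Cdh4, which encodes a cadherin adhesion molecule, lay between 30.5 and 150 at ZT2 and between 104 and 225 at ZT14, with a difference of 1.32 ± 0.31 (adjusted p = 0.202) against 0.86 ± 0.30 in controls. Igfbp5, an IGF binding protein gene, had times that did not overlap, 19.7 to 54.4 against 58.5 to 126, and a difference of 1.14 ± 0.27 (adjusted p = 0.218). Mpp7, a scaffold protein gene, did not overlap in the other direction, 181 to 412 against 77.9 to 177, with -1.01 ± 0.23 (adjusted p = 0.202) in knockouts and -0.78 ± 0.22 in controls. Tacc2 and Ppm1b had estimates of opposite sign in the 2 genotypes, with that of Tacc2 near 0 in controls. Tacc2 stood at -0.78 ± 0.18 in knockouts and 0.11 ± 0.17 in controls. Without the library labelled control PBS ZT2 replicate 2 its difference between genotypes was -0.85 ± 0.25 (adjusted p = 0.557, limma). Ppm1b, a protein phosphatase gene, stood at -1.03 ± 0.24 and 0.56 ± 0.24, with a difference between genotypes of -1.59 ± 0.34 (adjusted p = 0.672).

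**Figure D4:**
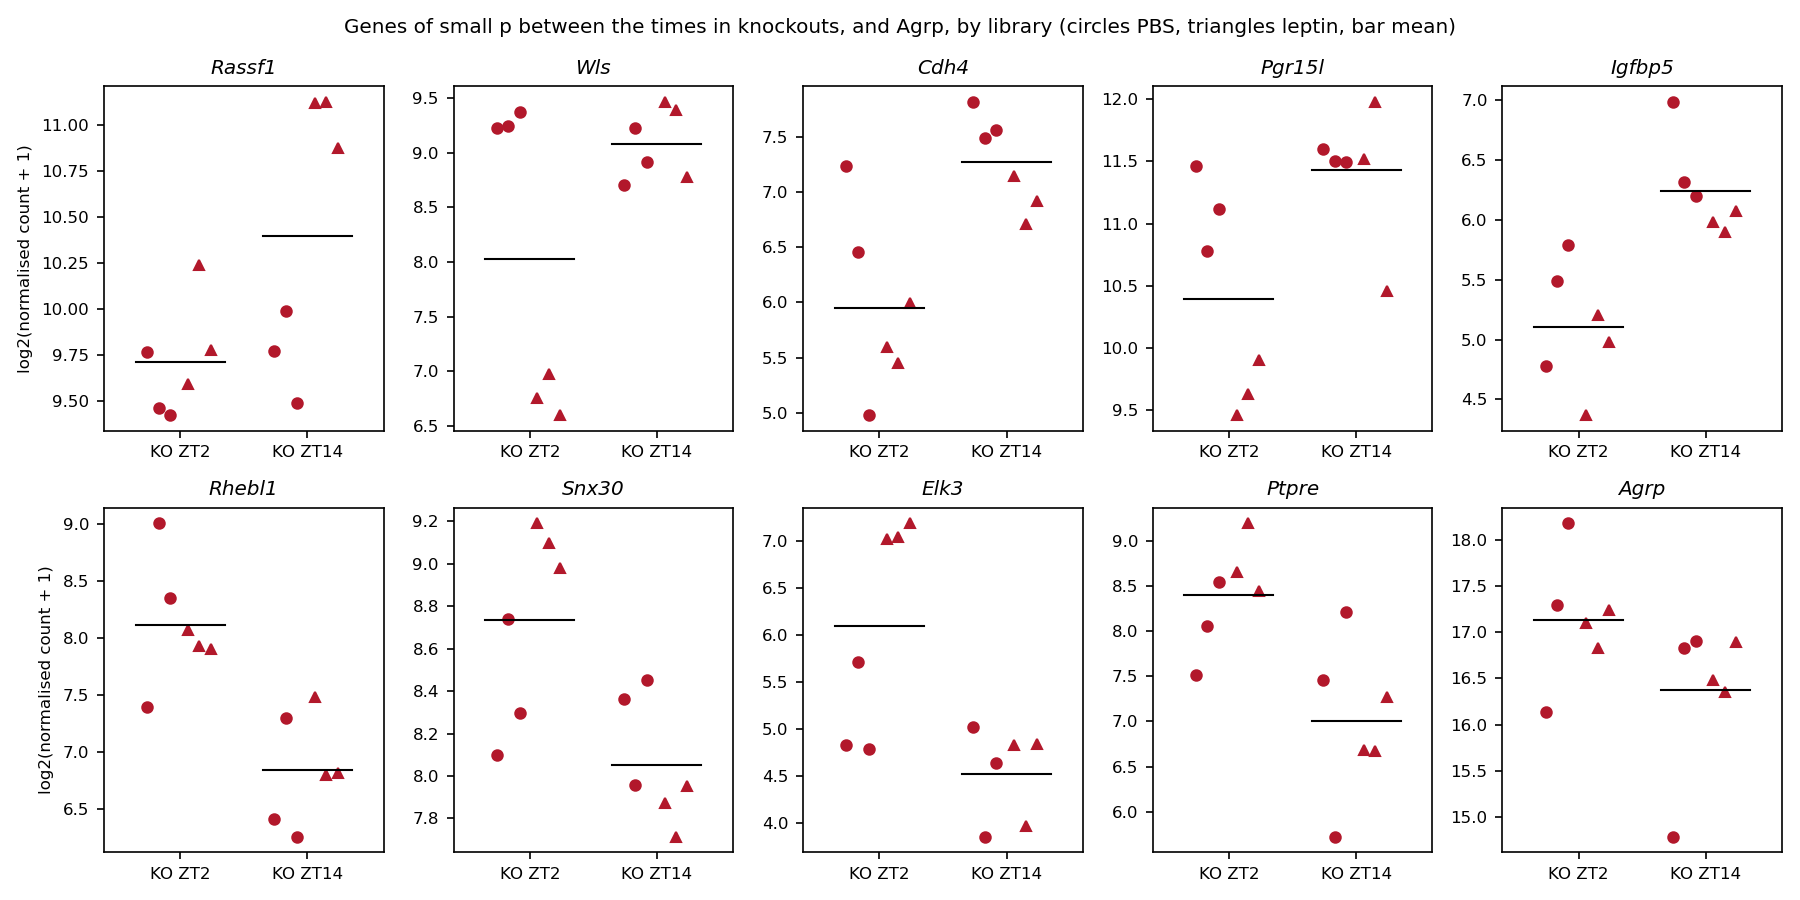
Normalised counts, as log2(normalised count + 1), of 9 genes of small p and of Agrp in the 12 knockout libraries, with circles for PBS, triangles for leptin and bars for means by time. Igfbp5 does not overlap between the times, while in Wls and Rassf1 the spread by time comes from the triangles and in Agrp 1 circle at ZT14 lies below the rest.

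The daily difference was then read after each injection on its own. After PBS 0 genes (0%) passed (692, or 4.96%, at an unadjusted p under 0.05), and edgeR also called 0. Without knockout PBS ZT2 replicate 2, whose group then held 2 libraries, 38 were called after PBS, and without knockout PBS ZT14 replicate 1 there was 1. After leptin 6 genes (0.043%) passed, with 1271 (9.12%) at an unadjusted p under 0.05: Wls and Rassf1 rose towards ZT14, and Snx30, Gse1, Sel1l3 and Scx fell. Wls, which encodes the carrier that brings Wnt proteins to the cell surface, lay at 108, 125 and 96.0 at ZT2 and at 706, 668 and 438 at ZT14 after leptin, a difference of 2.43 ± 0.35 (adjusted p = 0.00597). After PBS it lay at 597, 607 and 662 at ZT2 and at 416, 597 and 481 at ZT14, a difference of -0.33 ± 0.35. Within the knockouts the 3 leptin libraries at ZT2 are the low ones. Of the ZT2 controls, 6 lay between 116 and 246 and the library labelled PBS ZT2 replicate 2 at 483, so that the PBS knockouts at ZT2 lay above all 7. The control difference of Wls was 0.97 ± 0.24 (adjusted p = 0.129), or 1.16 ± 0.19 (adjusted p = 0.00279), past the threshold, without that library. Rassf1, which encodes a Ras association domain protein, went from 772, 1207 and 878 to 2224, 2233 and 1877 after leptin, a difference of 1.17 ± 0.21 (adjusted p = 0.0405), and after PBS the difference was 0.20 ± 0.21. Snx30, a sorting nexin gene, went from 584, 548 and 504 to 233, 209 and 247 after leptin, a difference of -1.24 ± 0.21 (adjusted p = 0.026), against -0.12 ± 0.21 after PBS. Gse1 changed by -1.27 ± 0.24 and Sel1l3 by -2.39 ± 0.45 (adjusted p = 0.0489 for each). Scx, a low gene, was at 12.5 to 30.6 at ZT2 and listed at 0 in the 3 ZT14 libraries. The leptin count was 0 without any 1 of knockout leptin ZT2 replicates 1 and 3 and knockout leptin ZT14 replicates 1 and 2, and between 2 and 17 without any other single library, the highest without the library labelled control PBS ZT2 replicate 2. It was 4 by edgeR, 3 of them among the 6.

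The dependence of the daily difference on the injection was tested directly, and no gene passed (0 of 13942, 0%, smallest adjusted p = 0.146, 723 at an unadjusted p under 0.05, and 0 by edgeR). The smallest p belonged to Wls, with a leptin minus PBS difference of 2.77 ± 0.50 (adjusted p = 0.146), followed by Hcn3, a pacemaker channel gene, with -2.24 ± 0.42 (adjusted p = 0.146). Hcn3 lay at 69.0 to 76.2 at ZT2 and 96.2 to 191 at ZT14 after PBS, and at 104 to 147 and 44.4 to 57.2 after leptin, so that the order of the times was opposite after the 2 injections. Cldn12, a claudin gene, stood at 1.93 ± 0.38 (adjusted p = 0.151). In the 20 genes called in controls, the median knockout difference in the control direction was 0.29 after PBS (13 of 20 with the control sign) and 1.09 after leptin (17 of 20). At an unadjusted p under 0.05 in that direction were 1 gene after PBS, Per3, and 11 after leptin. Over all genes 4.96% and 9.12% reached that level in either direction. The control test that chose the 20 shares its spread per gene with these tests, which favours small p here too. None of the 20 passed the adjusted threshold after either injection, and their leptin minus PBS differences had adjusted p of 0.702 or more. The 11 were Pcsk4, Elk3, Fam49a, Rapgef5, Rai14, Rtp4, Olfml3, Kcnj8, Wee1, Ptpre and Stac, with Wee1 the 1 clock-related gene among them. Elk3 is an example: its ZT2 values were 27.3, 51.3 and 26.5 after PBS and 128, 130 and 145 after leptin, while ZT14 lay between 13.5 and 31.6 throughout. Ciart stood at 2.24 after PBS and 2.10 after leptin, a difference of -0.14 ± 1.70 (95% interval -3.65 to 3.36).

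Outside the clock, immediate early and cholesterol synthesis genes had medians above 0 in both genotypes. List members were counted at an unadjusted p under 0.05 because 0 members of any list passed in knockouts. Immediate early genes, which neurons switch on when active, had a median difference of 0.52 in knockouts and 0.50 in controls, against 0.00 and -0.03 over all genes. Of 19 tested, 16 were above 0 in knockouts and 5 reached that level, all higher at ZT14, against 4.15% of all genes higher. Junb, an AP-1 subunit gene, lay between 936 and 3345 at ZT2 and between 2199 and 6754 at ZT14, with a difference of 1.14 ± 0.31 (adjusted p = 0.26), and Btg2 differed by 0.76 ± 0.28. Cholesterol synthesis genes had medians of 0.32 and 0.33, with 21 of 22 members above 0 in each genotype and 4 of them at that level and higher in knockouts, against 4.15% of all genes, of which 7064 of 13942 were above 0 in knockouts. Cyp51, which encodes lanosterol demethylase, had medians of 1926 at ZT2 and 2972 at ZT14 and a difference of 0.55 ± 0.23 (adjusted p = 0.483), against 0.48 ± 0.22 in controls. Sqle, the squalene epoxidase gene, differed by 0.61 ± 0.27. Of the lists tied to signals from the rest of the body, glucocorticoid response genes had a median of 0.02 in knockouts and 0.26 in controls, with Zbtb16 at 0.94 ± 0.44 and 0.90 ± 0.43. The cold-inducible RNA binding genes Cirbp and Rbm3, which follow body temperature, differed by 0.30 ± 0.14 and 0.09 ± 0.22, and by 0.25 ± 0.14 and 0.15 ± 0.21 in controls. The 51 ribosomal protein genes had a median of -0.12 in knockouts and 0.02 in controls, and 0 of them were at an unadjusted p under 0.05. Of the 51, 5 were above 0 in knockouts and 33 in controls. Of 45 oxidative phosphorylation genes, 11 and 34 were above 0, with medians of -0.09 and 0.05 and 0 at that level.

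**Figure D5:**
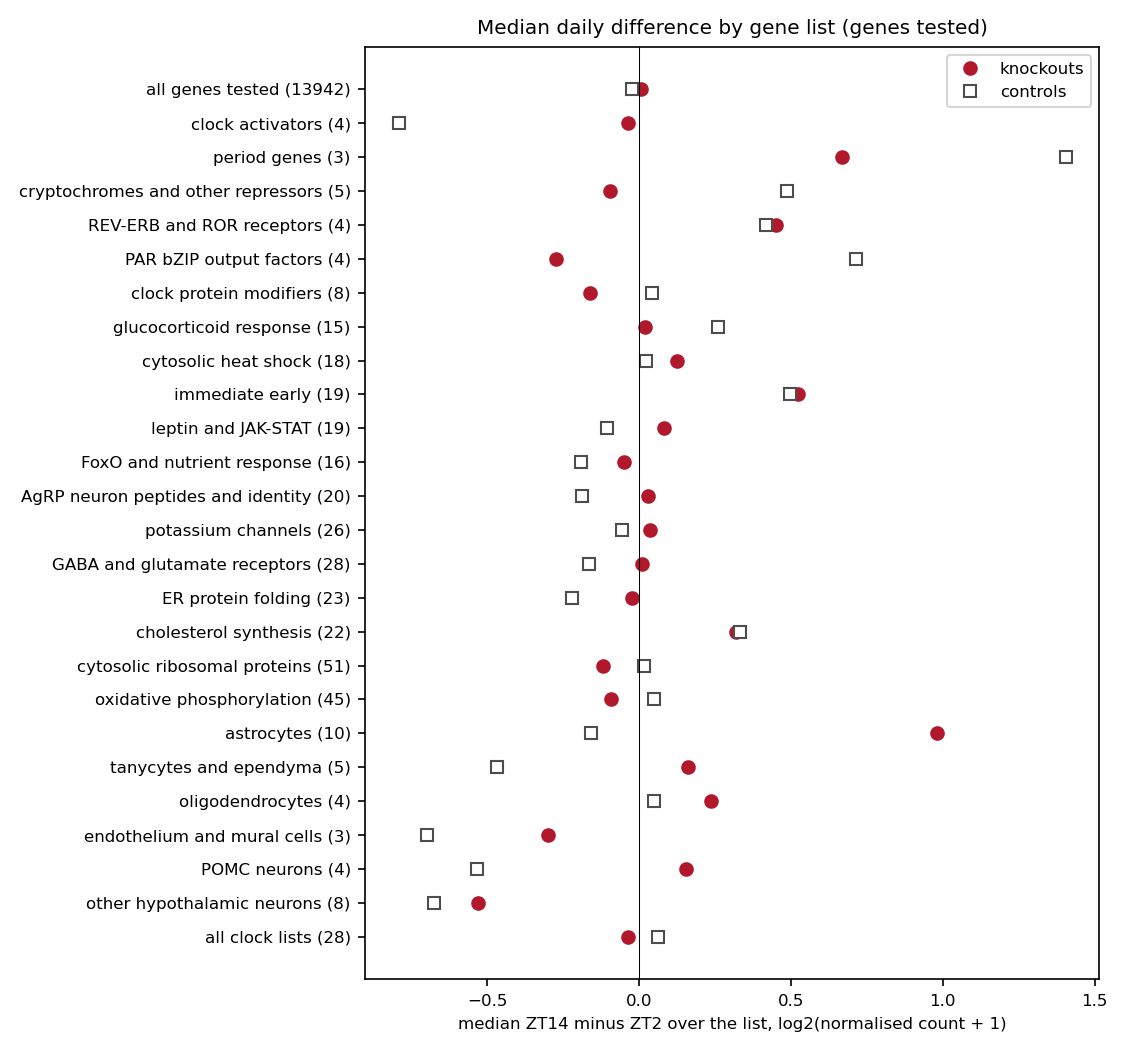
Median ZT14 minus ZT2 difference of each gene list, on log2(normalised count + 1), in knockouts (filled red) and controls (open), with the number of genes tested in brackets and all genes in the top row. Immediate early and cholesterol synthesis genes stand near 0.5 and 0.3 in both genotypes, and astrocyte markers at 0.98 in knockouts and -0.16 in controls.

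The feeding peptides were lower at ZT14 in knockouts without passing. Agrp lay at 71934, 160413 and 297351 after PBS and at 140983, 116527 and 154458 after leptin at ZT2. At ZT14 it lay at 28236, 116288 and 122482 after PBS and at 91459, 83911 and 121760 after leptin. The highest and the lowest value came from knockout PBS ZT2 replicate 4 and knockout PBS ZT14 replicate 1. The difference was -0.76 ± 0.32 (adjusted p = 0.496), -0.51 ± 0.31 without the first and -0.41 ± 0.27 without the second, against -0.18 ± 0.31 in controls. Npy stood at -0.82 ± 0.31 (adjusted p = 0.451) in knockouts and -0.14 ± 0.30 in controls, and at -0.61 ± 0.31 and -0.55 ± 0.29 without the same libraries in turn. Cpe, which encodes the carboxypeptidase that trims peptide hormones, lay between 4282 and 28835 at ZT2 and between 2538 and 7621 at ZT14, a difference of -1.45 ± 0.42 (adjusted p = 0.31), against 0.15 ± 0.41 in controls. Mc3r, a melanocortin receptor gene, stood at 0.63 ± 0.23. Of the 20 genes of AgRP peptides and identity, 1 was higher and 4 lower at an unadjusted p under 0.05, against 4.15% and 4.93% of all genes, with a median of 0.03. Lepr, the leptin receptor gene, differed by -0.13 ± 0.39, and Socs3, its feedback inhibitor, by 1.19 ± 0.61 (adjusted p = 0.576) in knockouts and -0.73 ± 0.59 in controls.

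Markers of other cells were read beside these results. The 11 astrocyte markers summed to 1515 to 2554 in knockouts at ZT2 and to 2297 to 4216 at ZT14, and to 3097 to 4200 and 3496 to 4379 in controls. Of 10 tested, 8 were above 0 in knockouts, against 7064 of all 13942 genes. Aldoc and Agt, 2 of the 10, were higher at an unadjusted p under 0.05, against 4.15% of all genes higher. Aldoc, which neurons also express, made up most of the sum, with 1270 to 2234 at ZT2 and 1543 to 4133 at ZT14, and none of the 11 markers was at 0 in all knockout libraries. The astrocyte sum had knockout medians of 2082 at ZT2 and 3393 at ZT14 with overlapping ranges, and its part in the results above was not tested. The sums of tanycyte, oligodendrocyte, microglia, vascular, POMC neuron, other neuron and erythroid markers overlapped between the times. In knockouts the oligodendrocyte sum was 989 to 1850 at ZT2 and 1435 to 1958 at ZT14. The microglial sum was 63.8 to 444 and 8.42 to 276. The POMC neuron sum was 2354 to 6672 and 3173 to 6015, and the other neuron sum 1419 to 7326 and 339 to 5161. At 0 in every knockout library were the oligodendrocyte markers Olig1, Olig2 and Opalin, the microglial C1qa, C1qb and C1qc, the neuronal Tac2 and Pmch, the POMC neuron marker Prdm12, and 3 globin genes. Other members of the same lists were above 0, so these zeros do not show that such cells were absent.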

How the data were processed

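Processed values were deposited for 80 libraries as 1 table of 23337 genes. The build is mm10, and the tools, per the submitters' processing notes, include DESeq2, DESeq, R 3.5.1, featureCounts from Subread, and STAR 2.5.1, in no stated order. The deposited signal values are normalised counts: read counts scaled by 1 factor for each library. In all 25 libraries used, 100% of values were whole multiples of 1 step (within 0.1), which gave the reads recovered.

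Per the labels' protocols, cells were sorted for GFP from dissociated arcuate slices of NPY-GFP mice while RiboTag samples were immunoprecipitated, without a statement of which libraries each applies to. SMART-seq v4 amplification preceded Nextera XT libraries. The labels number replicates without naming mice, so p-values measure the spread between libraries, which may be technical. The strand setting is not given in the sources used here, so overlapping genes cannot be told apart.

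limma 3.58.1 (limma-trend, R 4.3.3) was fitted to log2(value + 1), which understates changes of low genes, over 25 libraries in 8 groups sharing 1 spread. The knockout time difference is the mean of the PBS and leptin differences. The filter kept 13942 genes that reached a value of 10 in 3 or more libraries, and p-values were adjusted by Benjamini-Hochberg with 0.05 as threshold. Named are the clock genes, Agrp, Npy, Lepr and Socs3, 10 genes in each direction for time in knockouts (mean log2 value at least 5, smallest p where few pass), 5 for each interaction, and of each other list up to 4 called members or, with none called, up to 2. Genes called in controls and after leptin were named after their values were seen. Members, lists and tests were chosen with earlier results of these data known. Alternatives were edgeR 4.0.16 on recovered reads, array weights, other pseudocounts, filters and scalings, the knockouts alone, a replicate block and leaving out each library. The scripts were tested on simulated data. Gene symbols were matched to GENCODE M21 and RefSeq tables.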

Additional observations from a re-analysis of the deposited data

Results flagged for a closer look

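In 20 genes (the clock genes described, Wee1, Agrp, Npy, Lepr and Socs3) and 5 sets of libraries, the highest or lowest library was compared with the rest of its set on the log2 scale, and 8 of 100 such sets had a library standing apart. Chance gives about 1 in 20 for a single set. The sets share libraries and most of the genes belong to the clock, so the 100 are not independent and the count is a description. Of the 8, 5 concern the library labelled control PBS ZT2 replicate 2: Per1 at 592 (96.8 to 126 in the other 6 ZT2 controls, and apart among the 4 PBS libraries too), Ciart (Gm129) at 364 (1.65 to 15.2 in the others), Nr1d2 at 1208 (61.5 to 128) and Lepr at 2733 (700.5 to 1209). The 3 others concern knockout PBS ZT14 replicate 1, with Agrp at 28236 (83911 to 122482 in the other ZT14 knockouts), Npy at 116529 (265400 to 421957) and Lepr at 296 (1502 to 2439).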

How the results depend on the processing

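The count of 0 for time in knockouts was 1 without a filter on low values and 491 with array weights. After PBS, 0 became 2 and 8 under the same settings. After leptin, 6 became 12 without a filter, 3 with a stricter one, 3 with TMM or median-of-ratios rescaling, 547 with array weights, 2 from the 12 knockout libraries alone and 0 without the 4 libraries of low weight. The dependence on leptin gave 27 with array weights and 3 from the 12 knockout libraries alone. In controls, 20 became 13 without a filter, 793 with array weights and 6 without the 4 libraries. The dependence on genotype gave 97 with array weights and 31 without the 4 libraries, and Arntl by genotype was -0.73 with weights, past the threshold, and -0.94 to -0.77 leaving out 1 library, where -0.94, without control PBS ZT2 replicate 2, also passed. With the replicate block 0 genes were called in knockouts, 0 after PBS, 18 after leptin, 0 for either dependence and 11 in controls. With group means removed, libraries of different groups were correlated across genes. Of 78 same-numbered pairs 22 were over 0.1 (median 0.03), and of 195 differently numbered pairs 40 (median -0.02). Among the knockouts these were 2 of 15 (median 0.002) and 7 of 39 (median -0.01). Whether equal numbers mark a shared batch cannot be told from these values. Leaving out 1 library gave 0 to 44 in knockouts, 0 to 38 after PBS (both highest without knockout PBS ZT2 replicate 2), 0 to 17 after leptin (highest without control PBS ZT2 replicate 2), 0 to 2 for leptin and 6 to 86 in controls (lowest without control leptin ZT2 replicate 3, highest without control PBS ZT2 replicate 2). The genotype count stayed at 0.

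Signs turned for small differences. In knockouts Clock was -0.035 with the block and -0.10 to 0.16 leaving out 1 library. Lepr was 0.071 by edgeR, 0.072 with weights, 0.053 with the block, 0.13 without the 4 libraries and -0.39 to 0.37 leaving out 1. Krt28 was 0.20 and 0.17 with weights and without the 4 libraries, and -0.43 to 0.14 leaving out 1. Leaving out 1 library gave -0.14 to 0.40 for Npas2, -0.14 to 0.22 for Per2 and -0.059 to 0.30 for Hlf. Cry1 in controls was 0.044 without the 4 libraries and -0.23 to 0.065 leaving out 1, and Bhlhe40 by genotype was -0.19 without the 4 libraries. The 4 libraries were chosen after seeing the data for a weight under 0.5. The cause was not tested in any case.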
